A study of Cricetulus griseus with 9 samples.

Results

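Type IV collagen genes encode the chains that form the network of basement membranes, the thin sheets of matrix under epithelia and around other cells. The group was defined by the 6 mouse Ensembl identifiers of Col4a1 to Col4a6, and 3 of these, for Col4a1, Col4a2 and Col4a5, were found among the 15557 genes of the expression table. Col4a3, Col4a4 and Col4a6 had neither a row nor a gene model in the files used, so nothing can be said about their expression and they are not analysed here. Expression was measured by poly(A) RNA sequencing in CHO-K1 cells, an ovary-derived Chinese hamster line, 48 h after lipid transfection in medium with charcoal-stripped serum. The 3 groups, each with 3 libraries, received pre-miR-29b-1 or pre-miR-29a, which are synthetic precursors of these microRNAs, or anti-miR-29a, an inhibitor that the submitters describe as blocking both. Cells without any transfected RNA, or with a control RNA, were not analysed here, so a lower level with a pre-miR cannot be told apart from a higher level with the anti-miR. The series text mentions 3 separate experiments without saying which molecules each held. Since separate cultures are not stated for the libraries of a group, the p-values below reflect library-to-library spread, which may be technical.

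A type IV collagen molecule is a trimer of chains wound around each other through glycine-rich repeats, with a globular domain at the carboxyl end that joins trimers into a network. Col4a1 and Col4a2 chains form the trimer found in nearly all basement membranes, and the genes stand head to head in mammals. The Col4a5 chain enters trimers with Col4a3 and Col4a4, as in the kidney glomerulus, or with Col4a6, and inherited loss of it causes Alport syndrome in people. MicroRNAs of the miR-29 family pair with target mRNAs and lower their level or translation, and mRNAs of collagens, type IV among them, are known targets in other cells. The design asks how transcripts differ between cells given a miR-29 precursor and cells given a miR-29 inhibitor.

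The genes were counted through mouse proteins aligned to the hamster assembly CriGri_1.0, so that the models hold coding exons only. The Col4a5 model (ENSMUSG00000031274) had 53 exons and 4977 coding bases on scaffold JH000939, from 348053 to 457778 on the plus strand. The Col4a1 model (ENSMUSG00000031502) had 52 exons and 4959 coding bases on JH001437, from 95740 to 215447 on the plus strand, and was listed 2 times with the same exons. The Col4a2 model (ENSMUSG00000031503) had 28 exons and 3792 coding bases on JH001092, from 3868 to 33102 on the plus strand, close to the scaffold's first base. Col4a5 and Col4a1 thus had models of nearly the same length, while that of Col4a2, whose chain is known to be about as long as the Col4a1 chain, was shorter. None of the models shared exon bases with another gene. Exons had a median of 90 bases in Col4a5 and 88.5 in Col4a1, against 125 over 152251 exons of all 16116 gene models. The median of 120 bases in Col4a2 was close to that of all models. Exon lengths that were multiples of 9, the length of a coded glycine-X-Y repeat, made up 12 of 53 exons in Col4a5, 21 of 52 in Col4a1 and 11 of 28 in Col4a2, against 14.5% of all exons. Exon ends come from protein alignments, and the shortest Col4a5 exon had 5 bases.

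**Figure D1:**
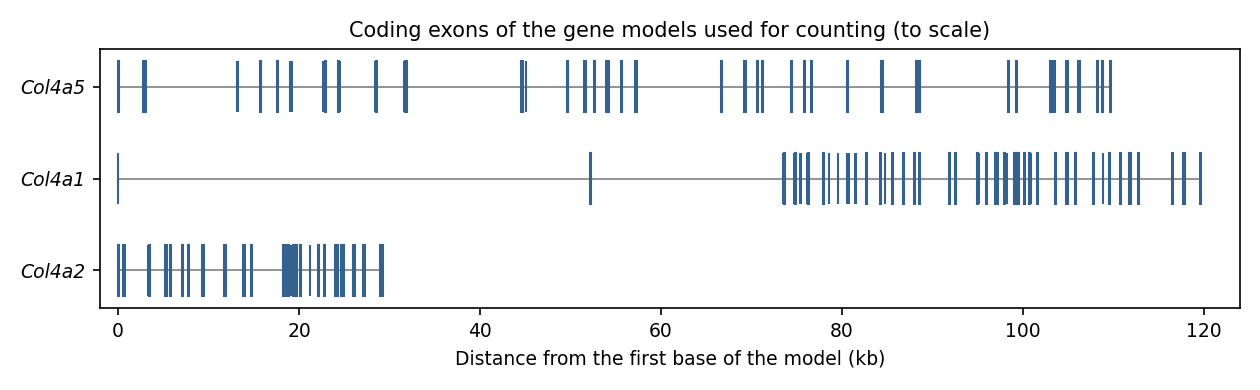
Coding exons (blue) of the type IV collagen gene models by distance in kb from the first base of each model, to scale. Col4a5 and Col4a1 span 109726 and 119708 bases with 53 and 52 exons, and the Col4a2 model spans 29235 bases with 28 exons.

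Levels are given in FPKM, fragments per kilobase of coding length with a scaling between libraries applied by the authors. Implied depth, read from the steps in low values, was 18590000 to 20800000 reads for pre-miR-29b-1 libraries, 16600000 to 19000000 for pre-miR-29a libraries and 15160000 to 17830000 for anti-miR-29a libraries. This depth is the scale of each library's values and need not equal its number of sequenced reads. No libraries held identical values, and correlations of log2 values across genes were 0.988 to 0.995 within groups and 0.961 to 0.993 between them. Per coding length, Col4a5 was the most abundant of the measured chains, followed by Col4a1 and then Col4a2, in this order in 9 of 9 libraries, and no ranges of neighbouring genes overlapped. Over all libraries Col4a5 stood between 7.94 and 26.5 FPKM, Col4a1 between 1.18 and 2.91 FPKM and Col4a2 between 0.0148 and 0.178 FPKM. Col4a5 thus stood above 48% to 62.1% of all 15557 genes in its library, and Col4a1, a low transcript, above 39.6% to 42.6%. These shares include genes under 1 FPKM. Of the 9504 genes that averaged at least 1 FPKM, 8618 averaged at least 5 FPKM. Between 698 and 2270 implied reads stood behind a Col4a5 value, 97 to 257 behind a Col4a1 value and 1 to 14 behind a Col4a2 value.

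Col4a1, a chain of the widespread trimer, was lower with either pre-miR than with anti-miR-29a. Its level was 1.26, 1.24 and 1.35 FPKM in the pre-miR-29b-1 libraries, 1.28, 1.18 and 1.18 FPKM in the pre-miR-29a libraries, and 2.64, 2.59 and 2.91 FPKM in the anti-miR-29a libraries. All 6 pre-miR libraries lay below all 3 anti-miR-29a libraries, an order found in 29.2% of all tested genes, while the ranges of the pre-miR groups overlapped. Group means were 1.28 ± 0.056 FPKM for pre-miR-29b-1, 1.21 ± 0.057 FPKM for pre-miR-29a and 2.71 ± 0.17 FPKM for anti-miR-29a (SD, n = 3 each). The mean was 52.7% lower with pre-miR-29b-1 and 55.3% lower with pre-miR-29a than with anti-miR-29a. In RNA from whole cultures, fewer cells that express a gene and less of its RNA per cell cannot be told apart. Each group mean was above 1 FPKM, the limit for testing, so Col4a1 did not enter the test only through the group in which it was high.

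Col4a5, a chain affected in Alport syndrome, showed the same order of groups. Its level was 8.49, 8.75 and 9.10 FPKM in the pre-miR-29b-1 libraries, 9.58, 7.94 and 8.45 FPKM in the pre-miR-29a libraries, and 26.5, 24.8 and 25.1 FPKM in the anti-miR-29a libraries. Again all 6 pre-miR libraries lay below all 3 anti-miR-29a libraries, with a highest pre-miR value of 9.58 FPKM and a lowest anti-miR-29a value of 24.8 FPKM. Group means were 8.78 ± 0.31 FPKM for pre-miR-29b-1, 8.66 ± 0.84 FPKM for pre-miR-29a and 25.5 ± 0.91 FPKM for anti-miR-29a (SD, n = 3 each). The mean was 65.5% lower with pre-miR-29b-1 and 65.99% lower with pre-miR-29a, so that the anti-miR-29a mean was 2.90 and 2.94 times the pre-miR means.

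Col4a2, the partner of Col4a1 in the widespread trimer, was close to the limit of detection in every group. Its level was 0.178, 0.0284 and 0.0266 FPKM in the pre-miR-29b-1 libraries, 0.142, 0.111 and 0.0479 FPKM in the pre-miR-29a libraries, and 0.0770, 0.0525 and 0.0148 FPKM in the anti-miR-29a libraries. These values stood for 14, 2 and 2 implied reads in pre-miR-29b-1, 10, 8 and 3 in pre-miR-29a, and 5, 3 and 1 in anti-miR-29a libraries. The groups overlapped, and the highest value of each group was that of replicate 1, an order shared by 11.6% of the 10455 genes that were above 0 in every library. With reads of a group added up, the level was 0.0801 FPKM with pre-miR-29b-1 (95% exact Poisson interval 0.0475 to 0.127), 0.102 FPKM with pre-miR-29a (0.0633 to 0.156) and 0.0473 FPKM with anti-miR-29a (0.0216 to 0.0897), where the intervals cover counting error only. A two-sided exact permutation test of the pre-miR against the anti-miR-29a libraries gave p = 0.333 for the difference of 0.0410 FPKM, with 84 regroupings and a smallest possible p of 0.0119. No difference in Col4a2 was thus detected, with 48 implied reads over all 9 libraries.

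**Figure D2:**
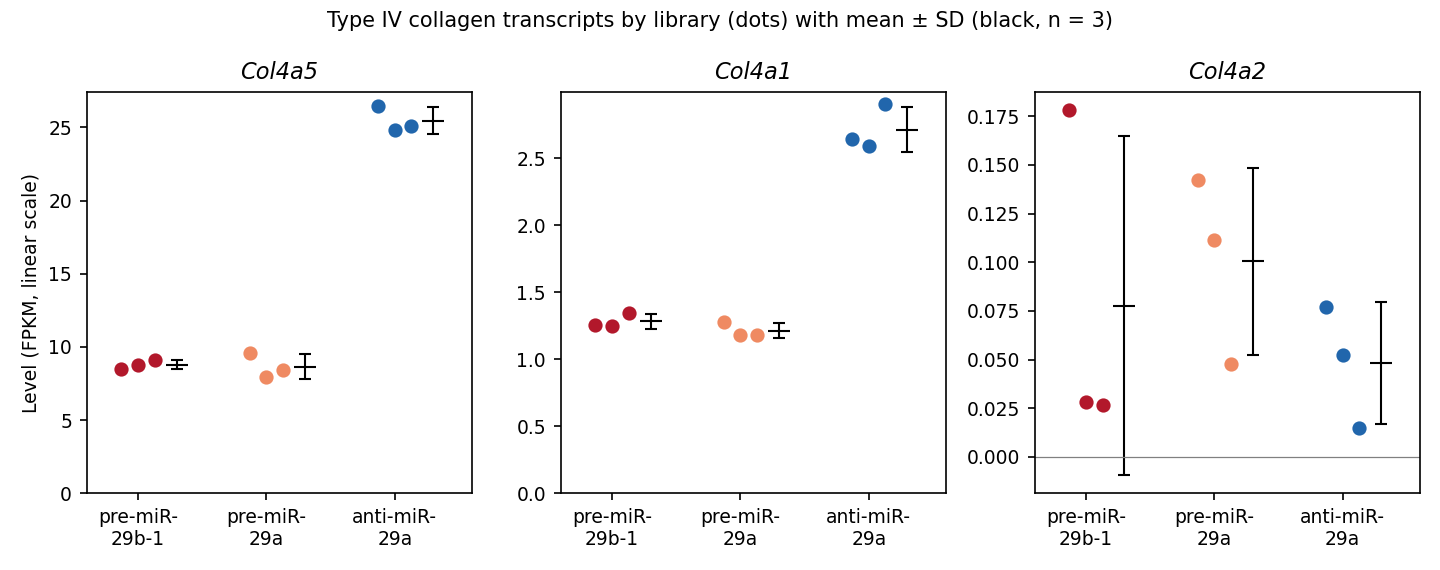
FPKM of each type IV collagen transcript in each library (dots) with the group mean and SD (black, n = 3), on a separate linear scale per gene. Col4a5 and Col4a1 have all pre-miR libraries below all anti-miR-29a libraries, at most 9.58 against at least 24.8 FPKM and at most 1.35 against at least 2.59 FPKM, while the Col4a2 groups overlap below 0.18 FPKM.

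In tests across all genes, with limma on log2(FPKM + 1) and Benjamini-Hochberg adjustment over the 9504 genes whose mean reached 1 FPKM, the 2 of 3 measured type IV collagen genes that reached this level, Col4a5 and Col4a1, were both lower with pre-miR-29b-1 than with anti-miR-29a. In that comparison 55.2% of the tested genes passed an adjusted p of 0.05 in either direction, 29.4% were called lower, and 35.2% had all pre-miR-29b-1 libraries below all anti-miR-29a libraries. The log2 fold change was -1.44 (SE 0.074, 95% interval -1.60 to -1.27) for Col4a5, with an adjusted p of 2.68e-07 (limma). It was -0.70 (SE 0.10, interval -0.93 to -0.47) for Col4a1, with an adjusted p of 0.000251 (limma). Both passed in a comparison in which most genes passed, so passing alone says little of them. Of all tested genes, 1.17% had a lower log2 fold change than Col4a5 and 7.76% a lower one than Col4a1, while the median over all genes was -0.006. This scale shrinks the change of low genes, and the log2 ratio of mean FPKM was -1.54 for Col4a5 and -1.08 for Col4a1. With a pseudocount of 5 FPKM in place of 1 the log2 fold change of Col4a1 was -0.30.

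Against the same anti-miR-29a libraries, pre-miR-29a gave a log2 fold change of -1.46 (SE 0.074, interval -1.62 to -1.29) for Col4a5, with an adjusted p of 2.16e-07 (limma). For Col4a1 it was -0.75 (SE 0.10, interval -0.97 to -0.52), with an adjusted p of 0.000144 (limma). Here 58.4% of tested genes passed in either direction, 30.9% were called lower, and 33.1% had all pre-miR-29a libraries below all anti-miR-29a libraries. A lower log2 fold change than that of Col4a5 was found in 1.42% of tested genes, and 8.65% were lower than Col4a1. The log2 ratio of mean FPKM was -1.56 for Col4a5 and -1.16 for Col4a1. The log2 fold change of Col4a1 was -0.31 with a pseudocount of 5 FPKM. The anti-miR-29a libraries are shared with the previous comparison, so the values are given side by side and their likeness is not counted as a result.

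**Figure D3:**
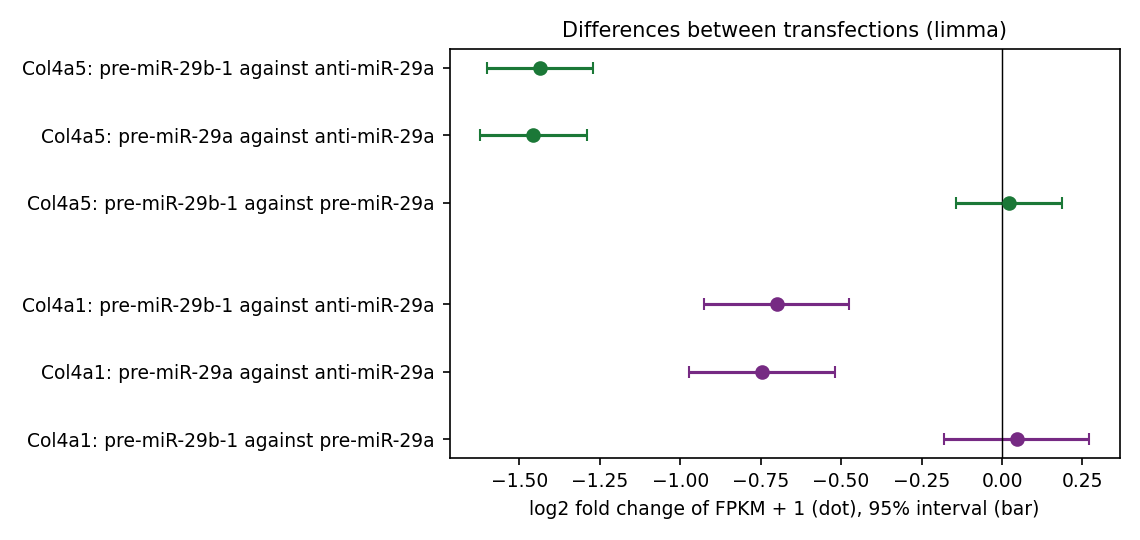
Log2 fold change of FPKM + 1 (dots) with 95% intervals (bars, limma) for Col4a5 and Col4a1 in each comparison. Each pre-miR differs from anti-miR-29a by -1.44 and -1.46 for Col4a5 and by -0.70 and -0.75 for Col4a1, and the intervals of the difference between the pre-miRs include 0.

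With the pre-miR groups averaged and set against anti-miR-29a, the log2 fold change was -1.45 (SE 0.064, adjusted p 6.06e-08, limma) for Col4a5 and -0.72 (SE 0.088, adjusted p 5.61e-05, limma) for Col4a1. Col4a5 held rank 117 from the lowest among the 9504 tested genes and Col4a1 rank 763. In this comparison 61.6% of tested genes passed in either direction, 32.3% were called lower, and 29.2% had all 6 pre-miR libraries below all 3 anti-miR-29a libraries. Col4a5 was among the 362 genes that were called and at least 2-fold lower on this scale, and Col4a1 was not. For Col4a1 this depended on the scale, since its log2 fold change was -1.06 with a pseudocount of 0.1 FPKM and -0.30 with 5, and the log2 ratio of mean FPKM was -1.12.

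**Figure D4:**
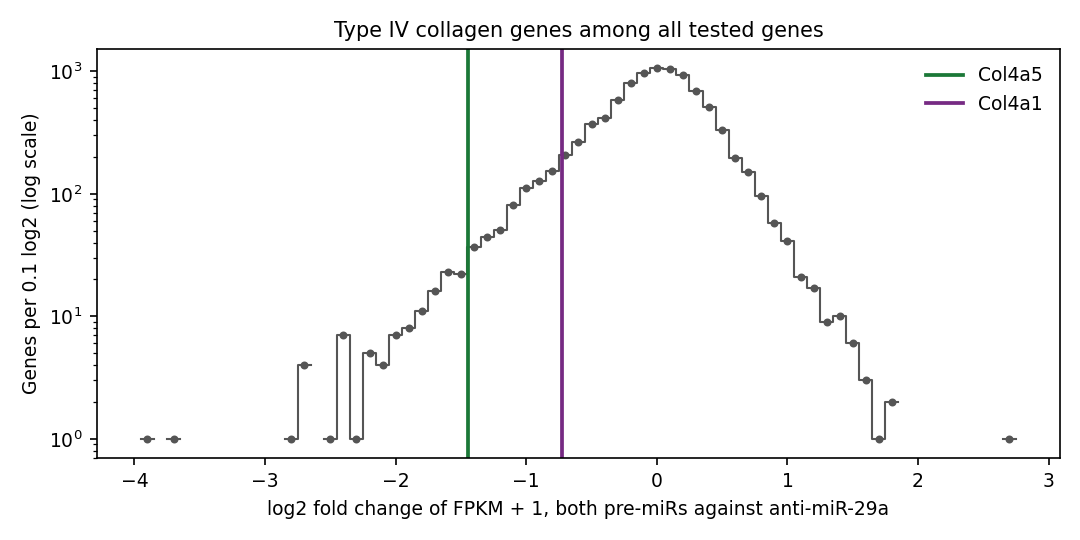
Number of tested genes (log scale) per 0.1 of log2 fold change, both pre-miRs against anti-miR-29a, with vertical lines at Col4a5 (green) and Col4a1 (purple). Col4a5, at -1.45, lies in the lower tail with 1.22% of 9504 genes below it, and Col4a1, at -0.72, has 8.02% below it.

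Between the pre-miRs, which carry family members that share a seed, no type IV collagen gene passed the test. Of the tested members 0 of 2 passed an adjusted p of 0.05 with limma, and 0 of 2 an unadjusted p of 0.05. Of all tested genes 0.0105%, a single gene, passed the adjusted and 16.5% the unadjusted threshold, and 18.9% had no overlap between the libraries of the pre-miRs. The number of genes called was not stable, at 1378 without pre-miR-29a replicate 1 and 3627 with array weights, but members called stayed at 0 in both. The log2 difference, pre-miR-29b-1 minus pre-miR-29a, was 0.02 for Col4a5 (SE 0.074, unadjusted p 0.781, adjusted p 0.897, limma), with a 95% interval of -0.14 to 0.19. This interval corresponds to FPKM + 1 at 0.905 to 1.14 times that with pre-miR-29a. For Col4a1 the difference was 0.05 (SE 0.10, unadjusted p 0.663, adjusted p 0.833, limma), with an interval of -0.18 to 0.27, or 0.883 to 1.21 times in FPKM + 1. For a low gene such as Col4a1 the same limits are wider in FPKM itself. The test does not show that the pre-miRs act alike. The direction of either difference turned with quantile normalization, to -0.08 for Col4a5 and -0.03 for Col4a1.

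The levels of Col4a5 and Col4a1 were also compared through the ratio of the chains within each library, which does not depend on library scaling. The ratio of Col4a5 to Col4a1 FPKM was 6.75, 7.04 and 6.76 in the pre-miR-29b-1 libraries, 7.50, 6.75 and 7.16 in the pre-miR-29a libraries, and 10.04, 9.58 and 8.63 in the anti-miR-29a libraries. All pre-miR libraries had a lower ratio than all anti-miR-29a libraries. The log2 ratio averaged 2.80 ± 0.062 (SD, n = 6) with the pre-miRs and 3.23 ± 0.11 (SD, n = 3) with anti-miR-29a. The difference was -0.43, or 1.35-fold. This ratio was chosen after the values of both genes were seen, so it is a description and no test of it is given.

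The ratio of Col4a1 to Col4a2, chains of a single trimer, was far above 1 and uneven. It was 7.06, 43.8 and 50.6 in the pre-miR-29b-1 libraries, 8.98, 10.6 and 24.7 in the pre-miR-29a libraries, and 34.3, 49.3 and 196.2 in the anti-miR-29a libraries. The groups overlapped. The log2 ratio averaged 4.19 ± 1.22 (SD, n = 6) with the pre-miRs and 6.11 ± 1.33 (SD, n = 3) with anti-miR-29a, and the difference of -1.93 had p = 0.0833 (two-sided exact permutation test, 84 regroupings). When libraries were regrouped only within replicate numbers, p was 0.0370 (exact permutation), the smallest that 27 regroupings can give. The result thus depends on whether the numbers mark shared experiments, which is not known. Without anti-miR-29a replicate 3, whose Col4a2 value rests on 1 implied read, the difference was -1.17 with p = 0.286 (exact permutation). The Col4a2 values of pre-miR-29b-1 replicates 2 and 3 rest on 2 implied reads each. Without replicate 2 the difference was -2.18 with p = 0.0714, and without replicate 3 it was -2.22 with p = 0.0536 (exact permutation). Over all left-out libraries it ranged from -2.43 to -1.17. With 1 FPKM added to both genes the difference was -0.78 with p = 0.0119 (exact permutation), where the added value outweighs Col4a2 and the ratio follows Col4a1. The Col4a2 model held 28 exons and 3792 coding bases against 52 and 4959 for Col4a1. What the gene models add to the size of the ratio was not tested.

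**Figure D5:**
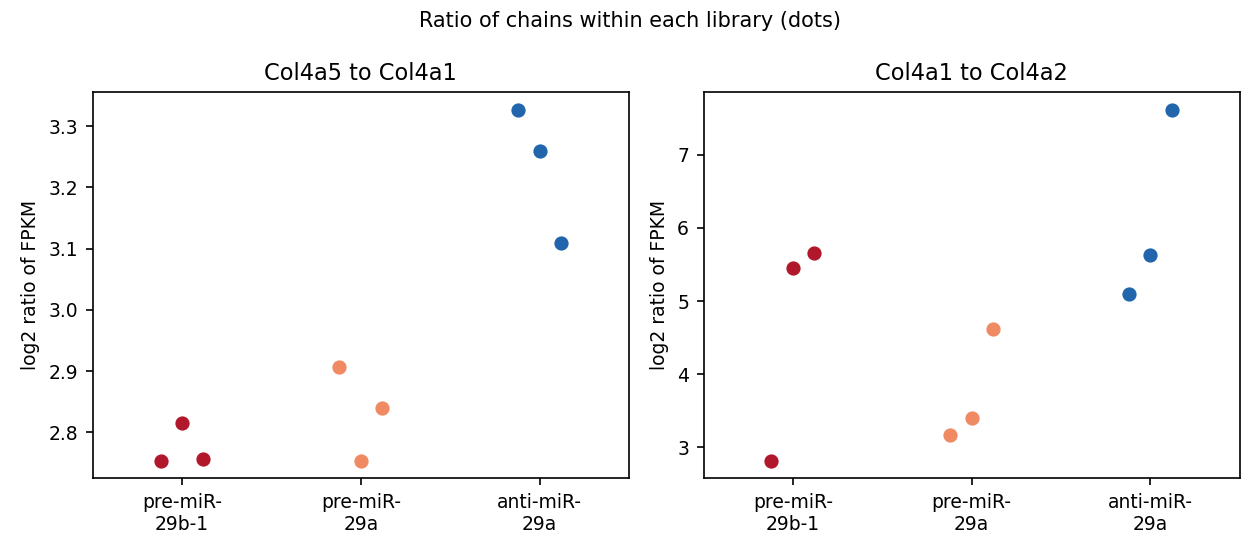
Log2 ratio of FPKM between type IV collagen chains in each library (dots), Col4a5 to Col4a1 on the left and Col4a1 to Col4a2 on the right, with axes that do not start at 0. The Col4a5 to Col4a1 ratio is lower in all pre-miR libraries, at most 2.91 against at least 3.11, and the Col4a1 to Col4a2 ratios of the groups overlap.

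Added over the measured chains, type IV collagen transcripts stood at 10.1 ± 0.29 FPKM for pre-miR-29b-1, 9.97 ± 0.92 FPKM for pre-miR-29a and 28.2 ± 0.90 FPKM for anti-miR-29a (SD, n = 3 each). Per 1000000 FPKM of a library this was 8.47 ± 0.20 for pre-miR-29b-1, 8.16 ± 1.17 for pre-miR-29a and 22.9 ± 0.97 for anti-miR-29a (SD, n = 3 each). Col4a5 made up 86.6% ± 0.93 of the sum for pre-miR-29b-1, 86.8% ± 0.68 for pre-miR-29a and 90.2% ± 0.58 for anti-miR-29a. Col4a1 made up 12.6% ± 0.22 for pre-miR-29b-1, 12.2% ± 0.56 for pre-miR-29a and 9.62% ± 0.69 for anti-miR-29a, and Col4a2 under 2% in every library. The sum therefore followed Col4a5, and no test was made over it.

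Many transcripts shared the pattern of Col4a5 over the libraries. Among the 8617 other genes that averaged 5 FPKM or more, 1702 had a Pearson correlation above 0.9 with the log2 level of Col4a5 over the 9 libraries, and 213 one above 0.99. The libraries fall into those with a pre-miR and those with anti-miR-29a, so such a correlation mostly describes this step and is given without a test. The most alike was ENSMUSG00000039952, with a correlation of 0.999 and levels of 117.7 ± 5.68 FPKM for pre-miR-29b-1, 113.6 ± 12.2 FPKM for pre-miR-29a and 336.4 ± 12.1 FPKM for anti-miR-29a (SD, n = 3). Next came ENSMUSG00000020674, also at 0.999, with 38.7 ± 1.52, 39.0 ± 5.13 and 146.6 ± 2.65 FPKM in pre-miR-29b-1, pre-miR-29a and anti-miR-29a libraries. The most opposite pattern was that of ENSMUSG00000020388, at -0.997, with 33.2 ± 1.11, 33.1 ± 1.12 and 12.7 ± 0.69 FPKM in the same groups. It was followed by ENSMUSG00000022707, at -0.996, with 41.1 ± 0.82, 42.8 ± 1.74 and 18.5 ± 0.69 FPKM. The files do not pair these identifiers with names, so nothing is said of what they encode.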

How the data were processed

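Stranded poly(A) libraries of 9 samples were read as single reads on a NextSeq500, per the labels' protocols. The authors deposited FPKM values for 15557 genes. Per the submitters' processing notes, FastQC, TopHat2 2.0.13 and Cuffnorm were used, with scaling and filters not given in the sources used here. Per the file headers, exon starts and ends come from Ensembl release 66 mouse proteins aligned to CriGri_1.0, so UTRs were not counted. Of the identifiers, 0 matched the 32251 genes of RefSeq's CriGri-PICRH-1.0 table. Lists of collagen-modifying enzymes, basement membrane partners and cell type markers could therefore not be used, and the cell line was not checked against markers. The type IV collagen genes are named as in the definition of the group.

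Implied reads came from the step of FPKM times length in unshared genes of at least 3000 coding bases, in which 99.1% to 100% of values up to 5 reads were whole to 0.2 reads. FPKM are not counts, so limma 3.58.1 in R 4.3.3 was fitted to log2(FPKM + 1) of all libraries, with trended moderated variances, two-sided tests and a filter at a mean of 1 FPKM. The code was run on simulated data with independent libraries and few changed genes. That setting is unlike these data, so it checks the code and not the calls made here. Ratios were tested by exact permutation. Genes named beside the members are those with the 2 highest and the 2 most negative correlations with the most abundant member. Members and lists were chosen with earlier results of these data known. Alternatives changed the pseudocount, filter, scaling, variance model, weights, block and libraries.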

Additional observations from a re-analysis of the deposited data

How the results depend on the processing

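The log2 fold changes of Col4a5 and Col4a1 against anti-miR-29a kept their direction and stayed past the threshold in each comparison under all alternatives that could give them, with a highest adjusted p of 0.00197 (limma), for Col4a1. Among the alternatives, median of ratios rescaling could change little, since its factors were 0.998 to 1.002. A filter at 5 FPKM removes Col4a1 by construction, which leaves 1 member called in each comparison with anti-miR-29a. For both pre-miRs, Col4a5 ranged from -1.54 to -1.15 and Col4a1 from -1.06 to -0.30, the extremes coming from pseudocounts of 0.1 and 5, and from -1.48 to -1.42 and from -0.75 to -0.69 when a library was left out. Members called stayed at 2 in these comparisons, and at 0 between the pre-miRs, without any library. Without a filter, Col4a2 had an adjusted p of 0.438 (limma) for both pre-miRs against anti-miR-29a.

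Deviations of same-numbered libraries correlated at -0.018 to 0.295, over 0.1 in 6 of 9 pairs, with 3 of 3 replicate 1 pairs among them. A library correlated best with its own number in 13 of 18 comparisons with another group. Since not every pair was over 0.1, the numbers were not treated as pairs in the main tests. This rule does not show that same-numbered libraries are independent, and whether the numbers mark a shared experiment is not known. With the replicate block, the Col4a1 to Col4a2 difference of -1.93 passed 0.05, with p = 0.0370 (exact permutation within numbers), the smallest that 27 regroupings can give, and 184 genes passed between the pre-miRs. The block changed no call of a member. With 1 FPKM added, the Col4a1 to Col4a2 difference was -0.78. Leaving out a library gave -2.43 to -1.17 for Col4a1 to Col4a2, -0.49 to -0.38 for Col4a5 to Col4a1, and -18.5 to -17.7 FPKM for the difference of the sums (-18.2).

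Between the pre-miRs, all tested genes gave 1 call, but 0 without moderation, 0 with only the groups compared, 3627 with array weights and 1 to 1378 over left-out libraries, with 1378 when pre-miR-29a replicate 1 was the library removed. The differences of members changed sign to -0.0781 (Col4a5) and -0.0277 (Col4a1) with quantile normalization, and for Col4a5 to -0.00239 without pre-miR-29b-1 replicate 3 and -0.0324 without pre-miR-29a replicate 2, where the range over left-out libraries was -0.0324 to 0.0886. The cause was not tested. Of the measured members, only Col4a2 had values near or under 3 reads, the limit taken for detection, which stand for 0.0380 to 0.0522 FPKM of this gene. Its values in pre-miR-29b-1 replicates 2 and 3 and in anti-miR-29a replicate 3 were under this limit, at 2, 2 and 1 implied reads.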

Other observations

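The genome neighbourhood of the measured members was uneven. On CriGri_1.0 the Col4a5 and Col4a1 models were the only gene models on their scaffolds. The Col4a2 scaffold held 6 other gene models, the nearest 5220 bases away, with mean levels of 0.253 to 61.4 FPKM. Of these, 5 entered the tests, and with the pre-miRs 3 were lower and 0 higher than with anti-miR-29a (limma, adjusted p under 0.05), with log2 fold changes of -0.98 to -0.12 over the 5 genes, beside 32.3% of all tested genes called lower. In the RefSeq annotation of CriGri-PICRH-1.0, Col4a1 and Col4a2 neighbour each other with 0 protein-coding genes between them, although their models lie on separate scaffolds of the assembly used for counting.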
